A study of Canis lupus familiaris with 17 samples.

Results

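The genes for 10 surface receptors of natural killer (NK) cells and cytotoxic T cells, KLRF1, KLRB1, KLRD1, KLRK1, KLRG1, KLRA1, NCR3, CD96, CD160 and NCAM1, were followed across the blood leukocytes of 17 dogs. They were chosen by symbol, each matched 1 row, and they made up 10 of the 20257 genes counted. Leukocytes of 7 healthy client-owned dogs and of 10 treatment-naive dogs with osteosarcoma (OS), a malignant bone tumour, were profiled by droplet-based single-cell RNA sequencing, with 1 library per dog. The dogs were of both sexes and of various breeds and labelled as wild type (Wt), the healthy ones were middle-aged and those with OS middle-aged to old, and the dogs with OS were bled while their primary tumour was in place. The cells were labelled as peripheral blood mononuclear cells (PBMC) and came from the leukocyte layer of a density gradient. Age, sex and breed were not terms in the model, and their part in any difference between groups was not tested.

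NK cells carry no clonal antigen receptor and decide whether to kill from the balance of activating and inhibitory receptors on their surface. Many of these receptors are shared with CD8 T cells that have met antigen, and naive T cells generally lack them. The killer cell lectin-like receptors (KLR genes) are C-type lectin proteins encoded together in the NK gene complex, whereas NCR3, CD96, CD160 and NCAM1 belong to the immunoglobulin superfamily. In humans NCAM1 (CD56) is a defining antigen of NK cells.

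In the RefSeq annotation of the dog assembly UU_Cfam_GSD_1.0, which is not the build used for counting, all 10 symbols were found. KLRG1, KLRB1, KLRF1, KLRD1, KLRK1 and KLRA1 lay in this order on 1 chromosome, with 30 protein-coding genes between the first and the last of them. KLRD1 and KLRK1 were direct neighbours, with 0 protein-coding genes between them. The other 4 genes lay on other chromosomes. The kit reads the 3′ end of each transcript, so the tests compared each gene between cells or dogs and not between genes. Where UMIs or shares of cells of different genes stand side by side below, how well each gene was captured was not measured.

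The libraries held 1332 to 7748 barcodes and 7740230 to 56510134 unique molecular identifiers (UMIs, each standing for 1 captured transcript), and 75473 cells were analysed, 32617 from healthy dogs and 42856 from dogs with OS. Libraries shared 0 to 16 cell barcodes in pairs, at most 0.332% of the smaller library. Cells were clustered without the 10 receptor genes and without the other listed receptors, adaptors and ligands, and clusters were called "like" a cell type from marker genes. Genes expressed along with the receptors did drive the clustering. Most marker lists came from the study's signatures of these same data, with the receptors taken out. Those signatures included KLRF1, NCR3 and CD96 for NK cells, and KLRB1, NCR3, KLRD1 and CD96 for effector CD8 T cells. The class differences given below are thus not independent of the study's markers. The receptors were counted in 9514 effector CD8-like, 1199 memory CD8-like, 2879 naive CD8-like, 913 double-negative (DN) and 488 gamma delta (gd) T-like cells, in 26240 CD4-like cells and in 7006 B-like cells. NK-like cells were few, 366 in all and 7 to 79 per dog, so that 15 dogs gave a level (at least 10 cells) and 5 dogs, 3 healthy and 2 with OS, entered a test (at least 25 cells).

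The NK-like label was checked against CD3E, a subunit of the T cell receptor complex, which NK cells lack at the surface. In 12 of the 15 dogs CD3E lay between 0 and 143 CPM in the NK-like cells (counts scaled to 1000000 UMIs of the class in that dog). In dogs OS4, OS7 and OS10 it reached 575, 922 and 908 CPM, against 879 ± 113 CPM (SD, n = 17 dogs) in effector CD8-like T cells, so the label went against the data in these 3 libraries. None of the 3 entered the tests on NK-like cells, apart from the alternative with at least 10 cells and no limit on CD3E. Without them the NK-like levels (n = 12) were 1194 ± 335 CPM for KLRB1, 389 ± 114 CPM for KLRD1, 633 ± 178 CPM for KLRK1 and 1163 ± 310 CPM for CD96. The rarer KLRG1, KLRA1, CD160 and NCAM1 were then at 98.1 ± 52.9, 27.2 ± 38.5, 40.7 ± 32.4 and 0.170 ± 0.590 CPM, and the values with all 15 dogs, and both for KLRF1 and NCR3, are given with each gene. In the naive CD8-like cells of dog OS4, CCL5, a chemokine of effector T cells, stood at 324 CPM against at most 10.2 CPM in the other dogs. In the 15 gd T-like cells of dog H3, CD3E was at 43.2 CPM against 820 ± 369 CPM over 14 dogs, while CD3D, another subunit, was at 518 CPM against 617 ± 134 CPM and GATA3, a T cell transcription factor, at 712 CPM against 691 ± 178 CPM. Dog H3 did not enter the tests on gd T-like cells, apart from the alternative with at least 10 cells.

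Most of the genes shared a pattern across the classes, and KLRF1 and NCAM1 departed from it. Of 18 named classes, NK-like, effector CD8-like and memory CD8-like cells held the 3 highest levels of KLRB1, KLRD1, KLRK1, KLRG1, NCR3, CD96 and CD160. For KLRA1 they were effector CD8-like, memory CD8-like and cycling T-like cells. A further 1045 T cells were given no class name and are not in this order. A cluster of them (151 cells, 6 dogs) scored highest for the study's NK T cell markers. It held CD96 at 509 ± 169, CD160 at 52.0 ± 54.3 and KLRF1 at 5.46 ± 6.19 CPM. KLRK1, KLRB1, KLRD1, NCR3, KLRA1 and KLRG1 were at 444, 293, 193, 176, 39.9 and 26.6 CPM there. KLRF1 was concentrated in NK-like cells, which held 51.8% of its UMIs and 0.485% of the cells. NCAM1 was found in naive T cells, with 42.9% of its UMIs in naive CD4-like and 37.9% in naive CD8-like cells. Effector CD8-like cells, 12.6% of the cells, held 85.2% of the UMIs of KLRB1, 84.1% of KLRA1, 83.2% of NCR3, 81.7% of KLRD1, 72.8% of CD160, 69.0% of KLRK1, 63.3% of CD96 and 47.75% of KLRG1.

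**Figure D1:**
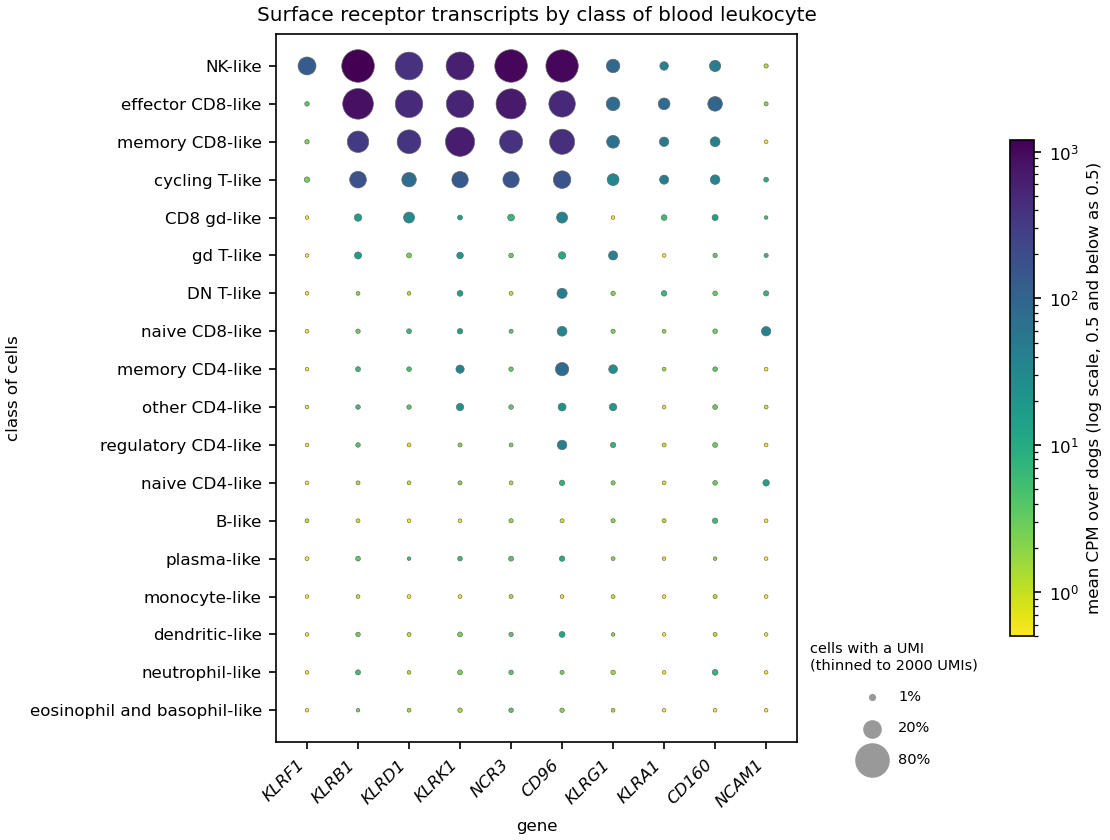
Levels and detection of the 10 receptor genes (columns) in 18 classes of blood leukocyte (rows); colour is the mean CPM over dogs on a log scale and dot area the mean share of cells with a UMI after thinning each cell to 2000 UMIs. KLRF1 reached 129 CPM in NK-like cells against 3.78 CPM in effector CD8-like cells, and NCAM1 was highest in naive CD8-like cells at 40.6 CPM.

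KLRF1 (ENSCAFG00000030153) encodes NKp80, an activating receptor of human NK cells. It had the fewest UMIs of the 10 genes, 543 in 394 cells. In NK-like cells it was at 129 ± 71.9 CPM (SD, n = 15 dogs), with a lowest value of 85.0, a median of 144 and a highest value of 216 CPM in healthy dogs and of 0, 120 and 256 CPM in dogs with OS. The groups overlapped, and the values of 0 and 18.2 CPM came from OS4 and OS10, in which the NK-like cells carried CD3E. Without OS4, OS7 and OS10 the level was 152 ± 57.1 CPM (n = 12). Effector CD8-like cells held 3.78 ± 6.39 CPM (n = 17), with 4 dogs at 0, and a highest value of 24.8 CPM in dog OS7. NK-like cells were above effector CD8-like cells in 14 of 15 dogs. KLRF1 was at 0 in the gd T-like cells of all 14 dogs with at least 10 of them.

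NCR3 (ENSCAFG00000030919) encodes NKp30, an activating natural cytotoxicity receptor. In NK-like cells it was at 1042 ± 305 CPM, with 825, 1082 and 1506 CPM as lowest, median and highest values in healthy dogs and 163, 1041 and 1355 CPM in dogs with OS. The low value was that of OS10, and without the 3 libraries with CD3E the level was 1084 ± 193 CPM (n = 12). NCR3 was in effector CD8-like cells at 711 ± 162 CPM, with 436, 744 and 925 CPM in healthy dogs and 407, 806 and 865 CPM in dogs with OS. Both groups spanned about the same range. Memory CD8-like cells were lower, at 390.5 ± 162 CPM, in all 17 dogs, by 0.96 ± 0.74 on the log2(CPM + 1) scale (mean ± SD of the difference over dogs). The difference between NK-like and effector CD8-like cells, 0.43 ± 0.54 on this scale and positive in 14 of 15 dogs, was within its SD. This SD includes the 3 libraries with CD3E. The dog in which NK-like cells were lower was OS10, at 163 against 407 CPM in effector CD8-like cells, and the step without it was not computed.

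KLRK1 (ENSCAFG00000025596) encodes NKG2D, an activating receptor for stress-induced ligands that signals through the adaptor HCST. Its level was of the same order in memory CD8-like cells (654 ± 117 CPM), NK-like cells (601 ± 195 CPM) and effector CD8-like cells (548 ± 198 CPM), and neither neighbouring pair in this order differed by more than the SD over dogs. In memory CD8-like cells the lowest, median and highest values were 455, 659 and 871 CPM in healthy dogs and 501, 638 and 788 CPM in dogs with OS. The effector CD8-like values were 409.9, 580.0 and 856 CPM in healthy dogs and 117, 525 and 938 CPM in dogs with OS. The groups overlapped in both classes, and dog OS10 was the lowest in effector CD8-like cells. Cycling T-like cells (138 ± 76.2 CPM, n = 13) and memory CD4-like cells (36.5 ± 27.8 CPM, n = 17) followed, and these steps did exceed their SD.

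KLRD1 (ENSCAFG00000013459) encodes CD94, which pairs with NKG2 family proteins to bind non-classical class I molecules. It was at 472 ± 139 CPM in effector CD8-like, 391 ± 105 CPM in NK-like and 362 ± 145 CPM in memory CD8-like cells. In effector CD8-like cells its lowest, median and highest values were 256, 497 and 733 CPM in healthy dogs and 313, 465.5 and 702 CPM in dogs with OS, and the groups overlapped. The effector level was above that of NK-like cells in 12 of 15 dogs, by 0.24 ± 0.18 on the log2(CPM + 1) scale, and the next step down, to memory CD8-like cells, was within its SD. CD8 gd-like cells, a small CD8A-positive class named from gamma delta markers, held 29.7 ± 32.6 CPM (n = 7). In naive CD8-like cells KLRD1 was at 0 in 13 of 17 dogs.

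KLRB1 (ENSCAFG00000013612) encodes CD161, a lectin receptor found on NK cells and on subsets of T cells. It was at 1177 ± 306 CPM in NK-like cells, with 652, 1282 and 1739.6 CPM in healthy dogs and 888, 1056 and 1663 CPM in dogs with OS as lowest, median and highest values. Its effector CD8-like level was 864 ± 287 CPM, with 311, 885 and 1277 CPM in healthy dogs and 382, 875 and 1135 CPM in dogs with OS. Healthy dogs held both the lowest (H5) and the highest (H3) effector value. Memory CD8-like cells were at 333 ± 131 CPM and below effector CD8-like cells in 17 of 17 dogs, by 1.39 ± 0.75 on the log2(CPM + 1) scale. The step from NK-like to effector CD8-like cells, 0.45 ± 0.29, also exceeded its SD. Memory CD4-like cells held 6.39 CPM on average.

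CD96 (ENSCAFG00000010358) encodes a receptor for the nectin-like protein PVR and shares this ligand with CD226 and TIGIT. It was the most widely detected of the 10 genes, with UMIs in 13114 cells. In NK-like cells it was at 1054 ± 366 CPM, with 672, 1282 and 1625 CPM in healthy dogs and 353, 869 and 1539.9 CPM in dogs with OS. Effector CD8-like cells held 509 ± 209 CPM, with 256, 389 and 721 CPM in healthy dogs and 247, 484 and 1127 CPM in dogs with OS. The groups overlapped, with dogs OS4 and OS9 at the 2 ends. CD96 was lower in effector than in NK-like cells in 14 of 15 dogs, by 0.99 ± 0.58 on the log2(CPM + 1) scale. Cycling T-like cells held 162 ± 114 CPM (n = 13). Memory CD4-like cells (82.0 ± 34.7 CPM), DN T-like cells (43.6 ± 23.8 CPM) and naive CD8-like cells (35.6 ± 15.6 CPM) held less, and every dog had UMIs of CD96 in each of them.

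KLRG1 (ENSCAFG00000028762) encodes an inhibitory receptor for cadherins and marks antigen-experienced lymphocytes. NK-like cells (89.4 ± 54.4 CPM), effector CD8-like cells (77.8 ± 32.9 CPM) and memory CD8-like cells (68.9 ± 39.6 CPM) followed each other within their SD. The lowest, median and highest effector CD8-like values were 47.3, 97.5 and 132 CPM in healthy dogs and 26.4, 62.1 and 123 CPM in dogs with OS, with overlap. Of the 10 genes it had the largest share of UMIs in memory CD4-like cells, 24.1%, beside 13.2% for CD96 and 6.57% for KLRK1. Memory CD4-like cells held 26.7 ± 9.77 CPM and gd T-like cells 38.3 ± 48.9 CPM (n = 14). Dog H3, with little CD3E in these cells, had 194 CPM from 18 UMIs in 15 cells, and without it the gd T-like level was 26.3 ± 20.3 CPM (n = 13) with a highest value of 61.2 CPM.

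CD160 (ENSCAFG00000011178) encodes a glycosylphosphatidylinositol-anchored receptor for class I molecules and for TNFRSF14. Effector CD8-like cells held 97.3 ± 45.4 CPM, with 28.7, 83.7 and 188 CPM in healthy dogs and 48.01, 80.3 and 164 CPM in dogs with OS. The healthy dogs H7 and H1 held the lowest and the highest value. NK-like cells were at 46.0 ± 37.9 CPM with 3 of 15 dogs at 0, and memory CD8-like cells at 39.9 ± 21.6 CPM. B-like cells held 5.42 ± 2.60 CPM.

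KLRA1 (ENSCAFG00000013443) encodes the single canine member of the Ly49 family, whose rodent members bind class I molecules. In effector CD8-like cells KLRA1 was at 84.6 ± 64.8 CPM, with 18.7, 42.7 and 162 CPM in healthy dogs and 3.78, 84.8 and 249 CPM in dogs with OS. Dogs OS4 and OS9 were again at the ends. Memory CD8-like cells held 48.6 ± 46.5 CPM and NK-like cells 37.5 ± 60.9 CPM, with 7 of 15 dogs at 0 in NK-like cells.

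**Figure D2:**
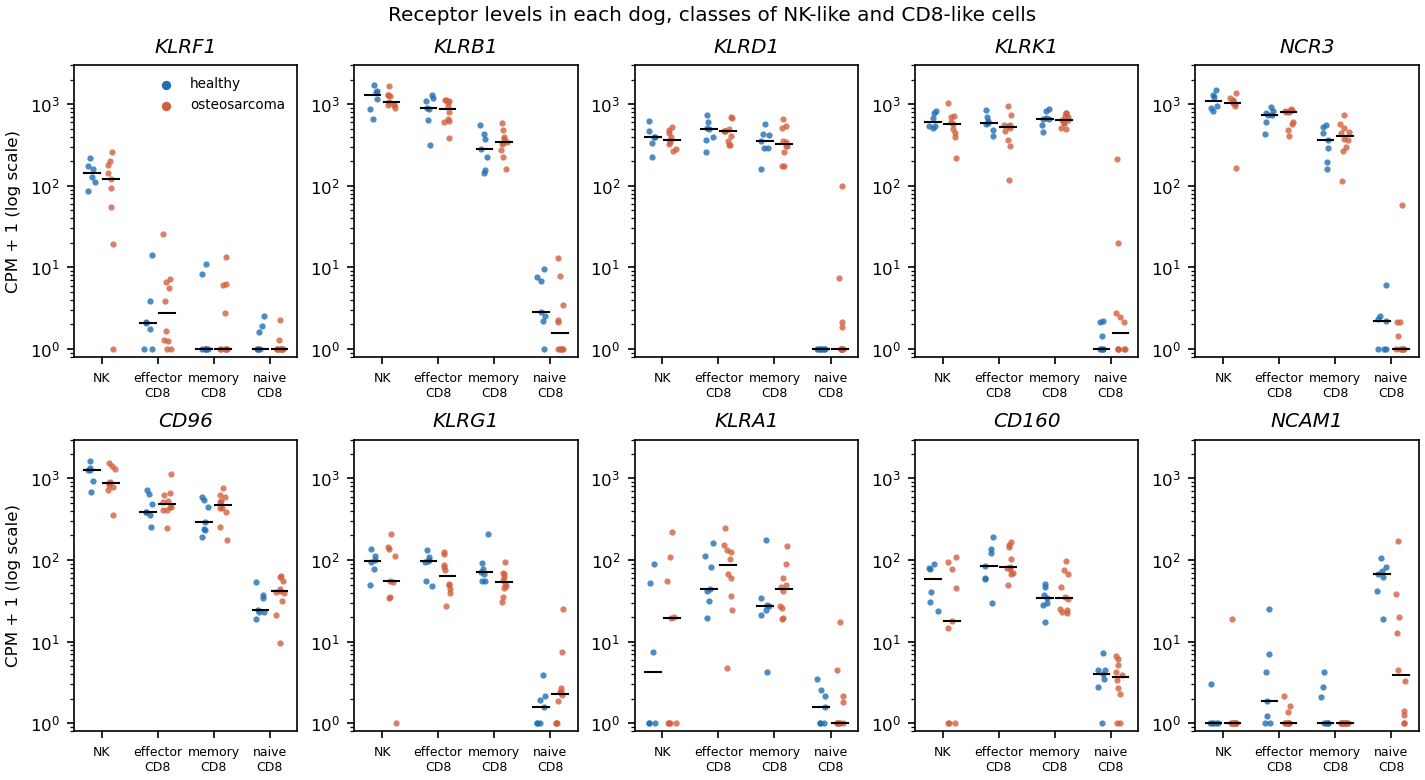
Level of each receptor gene in each dog (CPM + 1, log scale) in NK-like, effector, memory and naive CD8-like cells; each point is 1 dog, blue healthy and red OS, and bars are group medians. Healthy and OS points overlapped in all panels; KLRF1 had a mean of 129 CPM in NK-like and 3.78 CPM in effector CD8-like cells, and the separate OS point in naive CD8-like cells at 209 CPM of KLRK1 was dog OS4.

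Within cells, each cell was thinned to 2000 UMIs to set aside differences in depth, and B-like cells served as the class that should lack these transcripts. Median depths before thinning were 5030 UMIs in NK-like, 4397 in effector CD8-like, 5681 in memory CD8-like and 4024.5 in B-like cells. KLRB1 was seen in 80.7% of NK-like, 71.2% of effector CD8-like, 34.3% of memory CD8-like and 0.133% of B-like cells (unthinned 93.9%, 85.5% and 0.370% in NK-like, effector CD8-like and B-like cells). NCR3 gave 80.5%, 68.4%, 40.2% and 0.403% in the same order (unthinned 93.5%, 84.5% and 0.742% in NK-like, effector CD8-like and B-like cells). For these activating and lectin receptors a UMI was thus found in most NK-like cells even at the lower depth. KLRF1 was found in 23.7% of NK-like, 0.5802% of effector CD8-like and 0.147% of B-like cells (unthinned 41.3%, 1.47% and 0.446%).

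CD96 was seen in 79.6% of NK-like, 52.7% of effector CD8-like, 47.5% of memory CD8-like and 0.241% of B-like cells (unthinned 93.1%, 72.5% and 0.323% in NK-like, effector CD8-like and B-like cells). KLRD1 stood at 58.1% and 56.9% in NK-like and effector CD8-like cells and KLRK1 at 58.8% and 56.9%, with 0.0283% and 0.0464% in B-like cells (unthinned KLRD1 79.2%, 81.6% and 0.119%, and KLRK1 82.4%, 77.1% and 0.193%). The rarer receptors KLRG1, CD160 and KLRA1 were seen in smaller shares of the cells. Whether these shares set apart a subset of cells or came from low counts was not tested. KLRG1 was seen in 13.1% of NK-like, 13.4% of effector CD8-like and 0.366% of B-like cells (unthinned 29.7%, 25.7% and 0.880%). CD160 was seen in 8.72% of NK-like, 15.4% of effector CD8-like and 1.23% of B-like cells (unthinned 18.1%, 28.2% and 2.43%), and KLRA1 in 4.59%, 9.58% and 0.258% (unthinned 6.62%, 12.8% and 0.433%).

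Several receptors were seen in the same cell. NK-like cells held UMIs of 4.08 ± 0.38 of the 10 genes per cell (SD over dogs, thinned to 2000 UMIs), effector CD8-like cells 3.45 ± 0.27 and memory CD8-like cells 2.53 ± 0.42, against 0.146 in CD4-like and 0.0289 in B-like cells. At least 3 of the genes were seen in 89.9% of NK-like, 77.2% of effector CD8-like and 49.0% of memory CD8-like cells, and none of them in 0%, 1.11% and 10.7%. In a second random draw of the thinned UMIs NK-like cells held 4.11 ± 0.52 genes per cell in all 15 dogs and 4.26 ± 0.45 without the 3 libraries with CD3E. In this draw leaving them out moved the share of NK-like cells with KLRF1 from 20.3% to 24.8%, with NCR3 from 79.4% to 83.9%, with CD96 from 80.1% to 85.6% and with KLRA1 from 5.52% to 3.13%.

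**Figure D3:**
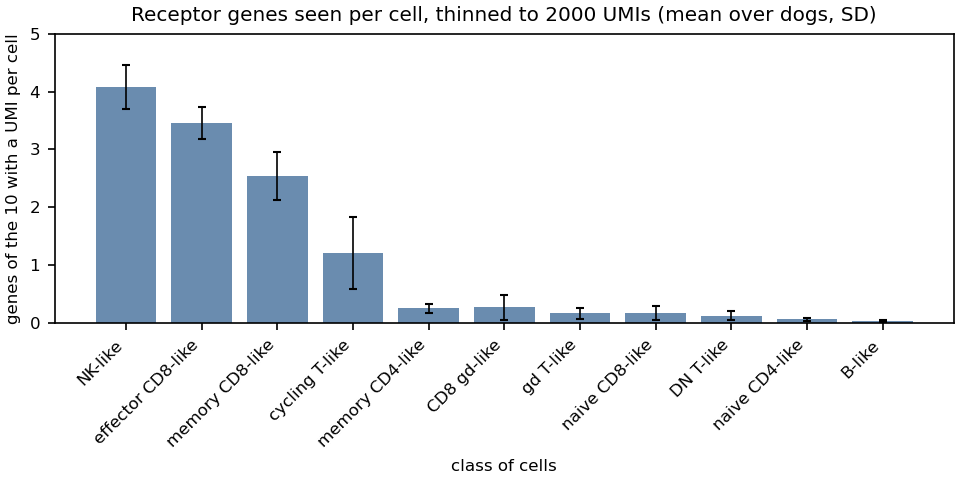
Number of the 10 receptor genes with at least 1 UMI per cell after thinning to 2000 UMIs (vertical axis), by class of cells; bars are means over dogs and lines the SD. The mean was 4.08 genes in NK-like, 3.45 in effector CD8-like, 2.53 in memory CD8-like and 0.0289 in B-like cells.

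KLRA1 differed from the other rarer receptors in how its UMIs were spread over effector CD8-like cells. Where it was seen, it gave 3.24 ± 0.73 UMIs per positive cell (unthinned, SD over 15 dogs with at least 10 such cells), although only 12.8% of the cells were positive, and 287 cells held at least 5 UMIs. CD160 gave 1.599 ± 0.282 UMIs in 28.2% of the cells and KLRG1 1.42 ± 0.12 UMIs in 25.7%. With cells thinned to 2000 UMIs, effector CD8-like cells with KLRA1 also held CD160 more often (25.8% against 16.2% of the cells without KLRA1, higher in 11 of 13 dogs) and CD96 more often (65.9% against 54.2%, 11 of 13 dogs). KLRK1 was at 52.1% against 58.5%, and higher in 3 of 13 dogs. These shares are a description, without a test.

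The effector CD8-like clusters were not alike. In a cluster led by TRPM3, MYO16 and ADGRL2 (2003 cells), KLRA1 reached 186 ± 146 CPM and CD160 174 ± 66.2 CPM. A cluster of 358 cells with a lower median depth of 2610 UMIs and a lower CD3E level of 281 CPM held NCR3 at 98.8 ± 76.6 CPM and KLRB1 at 253 ± 110 CPM, where the other effector clusters held 642 to 975 CPM of NCR3 and 750.0 to 1007 CPM of KLRB1. CD160 was also lowest there (35.0 CPM), while CD96 (790 CPM) and KLRG1 (107 CPM) were the highest of the effector clusters. KLRD1 (409 CPM) and KLRK1 (462 CPM) lay within the range of the other effector clusters. The part of the low depth in these differences was not tested. Among memory CD8-like cells, a cluster of 546 cells held KLRB1 at 559.5 CPM, NCR3 at 682 CPM and KLRK1 at 822 CPM. A cluster led by GZMK, CCL5 and PDCD1 (285 cells) held 223, 134 and 509 CPM of the same genes. KLRB1 and NCR3 were lowest in the remaining one (368 cells), at 66.1 and 72.4 CPM, while KLRK1 stood at 492 CPM there.

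Among CD4-like cells, KLRK1 and KLRG1 were found together in 3 clusters. In the largest of them (2331 cells) KLRK1 was at 75.4 ± 61.9 CPM and KLRG1 at 58.2 ± 23.4 CPM. In the others of 1119 and 1485 cells KLRK1 was at 74.7 and 77.5 CPM and KLRG1 at 58.4 and 38.1 CPM. All other CD4-like clusters held at most 12.0 CPM of KLRK1 and 20.1 CPM of KLRG1. In memory CD4-like cells as a whole, thinned shares were 12.7% for CD96, 4.87% for KLRG1 and 4.22% for KLRK1 (unthinned 28.6%, 11.6% and 7.44%, median depth 6278 UMIs), against the B-like shares given above.

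The next question was which receptors set NK-like cells apart from effector CD8-like T cells of the same dogs. Counts were summed per dog and class and compared with edgeR's quasi-likelihood test with the dog as a block, and a gene was called at a Benjamini-Hochberg adjusted p below 0.01 over all genes tested and an absolute log2 fold change above 0.58. In the 5 dogs with at least 25 cells of both classes, KLRF1 (142 against 3.16 CPM) was higher in NK-like cells by a log2 fold change of 5.61 ± 0.30 (SE, adjusted p = 1.59e-73, higher in 5 of 5 dogs). CD96 (1075 against 477 CPM) was higher by 1.10 ± 0.11 (adjusted p = 5.6e-21, 5 of 5 dogs). The SE and p-values of this fit lean on variance shared across genes. They do not measure the spread of each gene over the 5 dogs. CD160 (45.7 against 96.2 CPM) was lower by a log2 fold change of -1.17 ± 0.23 (adjusted p = 1.39e-05, lower in 5 of 5 dogs), and this call was lost with doublets kept (-0.68, adjusted p = 0.0200), in dogs with OS alone (-0.83, adjusted p = 0.383) and with DESeq2 (-1.12, adjusted p = 0.0121).

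Thus 2 of the 9 receptors tested were called higher in NK-like cells, where 1.85% of all genes were, and 1 was called lower, where 1.95% were. KLRB1 had a log2 fold change of 0.50 ± 0.11 (edgeR, adjusted p = 8.72e-05), under the limit on fold, and passed it, at 0.58 to 0.60, without H3 or OS6, with DESeq2 or its size factors and in healthy dogs alone. KLRA1 was called lower without OS6 (-1.14, adjusted p = 0.000528), with at least 10 cells (-1.10, with CD3E under 500 CPM -1.18), at resolution 1.6 (-0.95) and in healthy dogs alone (-1.17), while in dogs with OS alone its estimate turned to 0.28 (adjusted p = 0.93). KLRD1 (-0.31 ± 0.12), KLRK1 (0.05 ± 0.12, 95% interval -0.18 to 0.27), KLRG1 (0.25 ± 0.18), KLRA1 (-0.78 ± 0.23) and NCR3 (0.34 ± 0.11) were not called, and NCAM1 had too few counts to be tested. Of 12 other listed receptors tested, ITGAM (929 against 339 CPM), an integrin subunit of myeloid and NK cells, and CD244 (46.6 against 19.6 CPM), a SLAM family receptor, were higher in NK-like cells, and CRTAM and LAG3 were lower. Of 16 adaptor and signalling genes 3 were higher, namely the kinase SYK (391 against 39.6 CPM, 3.45 ± 0.15), the signalling chain FCER1G (819 against 315 CPM, 1.40 ± 0.12) and PLCG2 (0.94 ± 0.14), and 0 were lower. None of 7 listed ligands was called.

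Memory CD8-like cells were next compared with effector CD8-like cells in 17 dogs. KLRB1 (333 against 864 CPM) was lower in memory cells by a log2 fold change of -1.37 ± 0.12 (edgeR, adjusted p = 1.21e-11, lower in 17 of 17 dogs). CD160 (39.9 against 97.3 CPM) was lower by -1.38 ± 0.14 (adjusted p = 7.87e-10, lower in 15 of 17 dogs). NCR3 (390.5 against 711 CPM) was lower by -0.93 ± 0.11 (adjusted p = 3.81e-08, lower in 17 of 17 dogs), and this call was lost at a clustering resolution of 0.6 (-0.36, adjusted p = 0.0382). Of all genes tested 3.75% were called lower in memory cells, against 3 of these 10 receptors.

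The receptors not called included KLRK1, which was at 654 against 548 CPM (0.31 ± 0.09, adjusted p = 0.0169, higher in memory cells in 14 of 17 dogs). KLRD1 (-0.44 ± 0.06, adjusted p = 1.84e-07) and CD96 (-0.30 ± 0.07, adjusted p = 0.0013) passed the limit on p and not that on fold. KLRD1 was called with doublets kept (-0.61), with listed genes kept (-0.60) and with no correction across dogs (-1.21), and CD96 with no correction across dogs (-1.14). KLRA1 (-0.90 ± 0.30, adjusted p = 0.0305) was called without H3, OS4 or OS5 (-1.15, -1.10 and -1.08), with doublets kept (-1.11) or with no filter on low counts (-0.91), KLRG1 (-0.17) with no correction across dogs (-0.80), and NCAM1 (0.361 against 2.15 CPM, adjusted p = 0.0356) without H5 (-2.78) and with doublets kept (-3.68), while with DESeq2 its estimate turned to 0.81 (adjusted p = 0.768). The memory CD8-like levels moved with how cells were clustered. KLRB1 was at 511 CPM with the resolution of 0.6 and at 75.8 CPM with no correction across dogs, and NCR3 at 569 and 60.9 CPM. Of 14 other receptors LAG3, an inhibitory receptor of stimulated T cells, was higher in memory cells (14.7 against 4.91 CPM) and 5 were lower, ITGAM, CX3CR1, CD244, NCR1 and SLAMF7. Of 16 adaptors FCER1G was lower (106 against 224 CPM).

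Effector CD8-like and naive CD8-like cells differed in all 10 receptors. In effector cells 9 were called higher, where 14.2% of all genes were, and NCAM1 was called lower, where 10.4% were. The log2 fold change in 17 dogs was 8.20 ± 0.29 for NCR3, 8.08 ± 0.17 for KLRB1, 7.25 ± 0.39 for KLRD1, 6.59 ± 0.48 for KLRK1, 5.98 ± 0.34 for KLRA1, 5.34 ± 0.27 for KLRG1, 4.86 ± 0.15 for CD160 and 3.70 ± 0.13 for CD96. KLRF1, with 2.88 ± 0.62, was no longer called with DESeq2 (1.53, adjusted p = 0.0943) or in healthy dogs alone (1.00, adjusted p = 0.399). NCAM1 (2.15 against 40.6 CPM) was lower in effector cells by -4.26 ± 0.35 (edgeR, adjusted p = 5.97e-12, lower in 15 of 17 dogs). Of the naive CD8-like level of KLRK1, 13.9 ± 50.6 CPM, most came from dog OS4, and without this dog it was 1.64 ± 4.71 CPM. The levels of KLRD1 and NCR3 there went from 6.23 to 0.522 CPM and from 4.06 to 0.741 CPM without OS4. The log2 fold changes of effector over naive CD8-like cells were then 10.08 for KLRD1, 9.66 for NCR3, 8.95 for KLRK1, 6.71 for KLRA1 and 5.98 for KLRG1, and that of NCAM1 was -5.14 without H6. Of the listed adaptors, FCER1G (224 against 1.17 CPM) and HCST (22.7 against 8.39 CPM) were among 10 of 16 called higher in effector cells, and LAT was called lower. Of 14 other receptors 8 were called higher, including CX3CR1, SLAMF7 and CD244, and 0 lower. Of 9 ligands PVR was called higher and CDH1, the cadherin ligand of KLRG1, lower.

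CD4-like cells showed the same directions. Against them, 9 of 10 receptors were called higher in effector CD8-like cells, beside 9.38% of all genes, and NCAM1 lower, beside 11.4%. Among the 9 called higher, the log2 fold change was smallest for KLRG1 (2.21 ± 0.22, 77.8 against 15.6 CPM). CD96 was at 3.50 ± 0.19 (509 against 43.8 CPM), while NCR3, KLRB1, KLRD1 and KLRA1 reached 6.28 to 8.07. NCAM1 was lower in effector CD8-like cells by -1.76 ± 0.47 (edgeR, adjusted p = 0.0034), a call that was lost in healthy dogs alone (-1.22, adjusted p = 0.0879) and that was -2.49 without H6. Of the other receptors 9 of 14 were called higher and TIGIT, an inhibitory receptor for PVR, lower.

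DN T-like and gd T-like cells held little of most receptors. In DN T-like cells 9 of 10 were called lower than in effector CD8-like cells (13 dogs), beside 11.6% of all genes, from -9.57 ± 0.19 for NCR3 to -3.82 ± 0.14 for CD96 and -3.53 ± 0.84 for KLRF1. In gd T-like cells 9 of 10 were called lower (7 dogs), beside 7.48% of all genes, from -8.10 ± 0.30 for KLRD1 to -2.12 ± 0.28 for KLRG1, with KLRF1 at 0 in all 7. NCAM1 was called higher than in effector cells in both, by 1.99 ± 0.57 in DN T-like cells (edgeR, adjusted p = 0.00601, higher in 6 of 13 dogs, beside 6.41% of genes) and by 2.73 ± 0.76 in gd T-like cells (adjusted p = 0.00826, higher in 4 of 7 dogs, beside 6.02% of genes). Both NCAM1 calls were lost with DESeq2 (2.82 and 3.13, adjusted p = 0.0396 and 0.0138), in healthy dogs alone (1.46 and 2.59), with doublets kept (1.61 and 2.25) and without dog OS8 (1.57 and 2.60) or H2 (1.82 and 2.60). The NCAM1 call in DN T-like cells was also lost at resolution 0.6 (1.41) and without H5 (1.74) or H7 (1.79), and that in gd T-like cells with at least 10 cells (1.89), at resolution 1.6 (2.66) and without OS2 (2.66). The KLRF1 call was lost in both with DESeq2 (-1.36 and -2.39, adjusted p = 0.533 and 0.108) and in healthy dogs alone (-2.05 and -4.16, adjusted p = 0.211 and 0.544). In gd T-like cells the KLRF1 estimate was -0.93 at resolution 0.6 and -1.14 at resolution 1.6 (adjusted p = 0.39 and 0.337), and its call was also lost in OS dogs alone, with listed genes kept and without OS2, OS6 or OS7, with estimates of -6.28 to -5.00 (adjusted p = 0.0103 to 0.0626) beside -5.70 with all dogs. Leaving out 1 dog moved KLRF1 to -5.42 (H4) and NCAM1 to 2.71 (H6) in DN T-like cells and KLRD1 to -9.83 (OS6) in gd T-like cells, with the calls kept. Fitted values against a class at 0 depend on the prior count and are no bounds. NCR3 had 4 UMIs in all DN T-like cells and KLRD1 had 7 in all gd T-like cells, so the SE of these folds understate the counting error. Of 14 other receptors 8 were called lower in DN T-like and 9 in gd T-like cells. The mean of KLRK1 in DN T-like cells went from 14.7 to 8.55 CPM without dog OS1, and that in gd T-like cells from 20.4 to 10.6 CPM without dog H7.

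NCAM1 (ENSCAFG00000013844) encodes a neural cell adhesion molecule and was the exception among the 10. In NK-like cells it was at 1.35 ± 4.68 CPM and at 0 in 13 of 15 dogs. A UMI was seen in 0.392% of thinned NK-like cells (unthinned 0.477%), against 0.0440% of B-like cells (unthinned 0.151%), and this was 1 cell of dog OS10, so that the thinned share was 0% without the 3 libraries with CD3E. In naive CD8-like cells it was at 40.6 ± 47.5 CPM and was seen in 5.78% of cells (unthinned 12.5%, median depth 5815 UMIs), and in naive CD4-like cells at 13.97 ± 15.2 CPM and in 2.22% (unthinned 4.81%, median depth 5476 UMIs). Naive CD8-like cells were above naive CD4-like cells in 14 of 17 dogs, by 1.201 ± 1.221 on the log2(CPM + 1) scale, which is within the SD.

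The level of NCAM1 in naive T cells differed widely between dogs. In naive CD8-like cells the healthy dogs H1 to H7 held 41.3, 104.7, 17.7, 81.0, 71.9, 67.1 and 60.7 CPM. The dogs OS1 to OS10 held 37.7, 0.279, 18.8, 11.9, 3.46, 0.429, 0, 171.3, 2.27 and 0 CPM, and the value of OS3 rested on 3 UMIs. In naive CD4-like cells the healthy dogs held 9.03, 24.9, 6.65, 35.9, 14.4, 28.7 and 39.0 CPM. The dogs with OS held 19.1, 0.258, 0, 16.2, 0.324, 0.290, 0.593, 42.2, 0 and 0 CPM. Both groups overlapped, since dog OS8 was the highest in each class. All 7 healthy dogs and 3 dogs with OS had at least 5 CPM in both classes, and OS2, OS5, OS6, OS7, OS9 and OS10 were below 5 CPM in both, a limit chosen after the values were seen. A count of 0 in naive CD8-like cells allows up to 3 UMIs, that is 3.63 CPM in OS7 and 9.57 CPM in OS10, for counting error only.

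**Figure D4:**
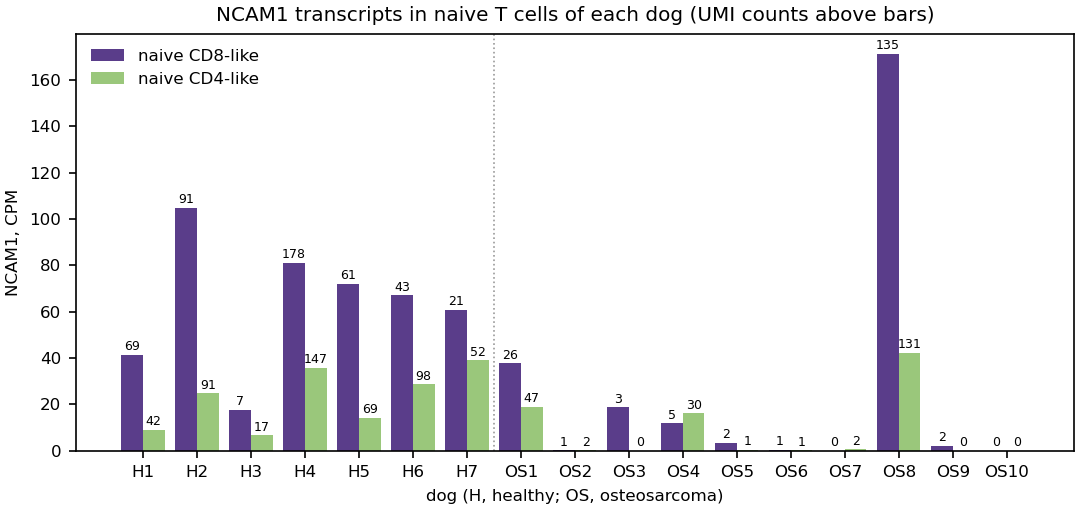
NCAM1 level (CPM, vertical axis) in naive CD8-like cells (purple) and naive CD4-like cells (green) of each dog, with the UMI counts behind each value above the bars. The 7 healthy dogs lie between 17.7 and 104.7 CPM in naive CD8-like cells, 6 dogs with OS lie under 5 CPM in both classes, and OS8 is the highest at 171.3 CPM.

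The disease comparison asked whether receptor levels differed between dogs with OS and healthy dogs within each class. None of the receptors tested was called by edgeR in any of 7 comparisons. All 10 were tested over all cells and in effector CD8-like and CD4-like cells, 9 in NK-like (not NCAM1), memory CD8-like (not NCAM1) and naive CD8-like cells (not KLRF1), and 6 in DN T-like cells, where KLRF1, KLRB1, KLRD1 and NCR3 had too few counts. Over all cells 0 of 16250 genes were called (0.0%), with 943 at an unadjusted p under 0.05 and 3 called by DESeq2. In NK-like cells 1 of 7531 genes was called (0.0133%), VIM, from 2 dogs with OS and 3 healthy dogs, with 287 at an unadjusted p under 0.05. In effector, memory and naive CD8-like, CD4-like and DN T-like cells 0.0% of genes were called, with 586, 396, 496, 544 and 499 genes at an unadjusted p under 0.05, and 0 by DESeq2 in each. The lists of other receptors, adaptors and ligands likewise gave 0 calls in all 7 comparisons. Whether a difference between classes itself differed between OS and healthy dogs was tested with edgeR in 6 comparisons. Of 59 receptor tests 14 had an unadjusted p under 0.05 and none was called, the smallest adjusted p being 0.0801 for KLRB1 in DN T-like against effector CD8-like cells. The share of all genes at that unadjusted limit was not computed. KLRB1 had 8 UMIs in all DN T-like cells, with 0 CPM in healthy dogs. The tests of KLRD1 and KLRK1 for effector against naive CD8-like cells (unadjusted p = 0.0204 and 0.0313, edgeR) included dog OS4. Of all genes 0.0547% were called for NK-like, 0.00767% for memory CD8-like, 0.0561% for DN T-like and 0.221% for gd T-like against effector CD8-like cells, and 0.0% for effector CD8-like against naive CD8-like or CD4-like cells. KLRF1 in NK-like against effector CD8-like cells had a difference of -2.09 ± 0.69 (unadjusted p = 0.00237, adjusted p = 0.767, edgeR).

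For effector CD8-like cells the estimates are given with their intervals. The log2 fold change of OS over healthy was -0.09 ± 0.26 for KLRB1 (95% interval -0.60 to 0.42), -0.02 ± 0.19 for KLRD1 (-0.39 to 0.35), -0.04 ± 0.19 for NCR3 (-0.42 to 0.33) and 0.03 ± 0.30 for CD160 (-0.56 to 0.61). KLRK1 gave -0.26 ± 0.26 (-0.77 to 0.25), CD96 0.25 ± 0.23 (-0.21 to 0.71), KLRA1 0.47 ± 0.52 (-0.56 to 1.49) and KLRF1 0.79 ± 0.90 (-0.98 to 2.56). KLRG1 was at 69.0 CPM in dogs with OS and 90.3 CPM in healthy dogs (-0.47 ± 0.27, interval -1.01 to 0.07, edgeR, adjusted p = 0.999). In memory CD8-like cells it was at 55.0 against 88.6 CPM (-0.67 ± 0.26, unadjusted p = 0.0159, adjusted p = 1.00 by edgeR), and the highest healthy value was that of dog H6, 207 CPM from 64 UMIs.

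The NCAM1 estimates were below 0 in each comparison of OS with healthy dogs that tested it, and none was called by edgeR with all dogs and no replicate block. In naive CD8-like cells it was at 24.6 CPM in dogs with OS and 63.5 CPM in healthy dogs, with a log2 fold change of -1.42 ± 0.67 (95% interval -2.73 to -0.10, edgeR, adjusted p = 0.992). It was called without dog OS8 (-3.51, adjusted p = 0.00987). In CD4-like cells it was -1.57 ± 0.75 (adjusted p = 0.999), and in all cells -1.76 ± 0.80 (adjusted p = 0.846), against -2.68 and -2.96 without OS8. The effector CD8-like levels were 0.211 against 4.92 CPM (-3.82 ± 0.94, unadjusted p = 0.00057, adjusted p = 0.999), and the highest value was 24.0 CPM in the healthy dog H6. Without H6 the healthy mean was 1.74 CPM and the estimate -2.47. KLRK1 and KLRD1 in naive CD8-like cells had estimates of 5.16 ± 1.61 and 6.12 ± 2.05 (adjusted p = 0.992 for both), which rested on dog OS4, the library whose naive CD8-like cells held CCL5, and without which KLRK1 gave 1.56.

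**Figure D5:**
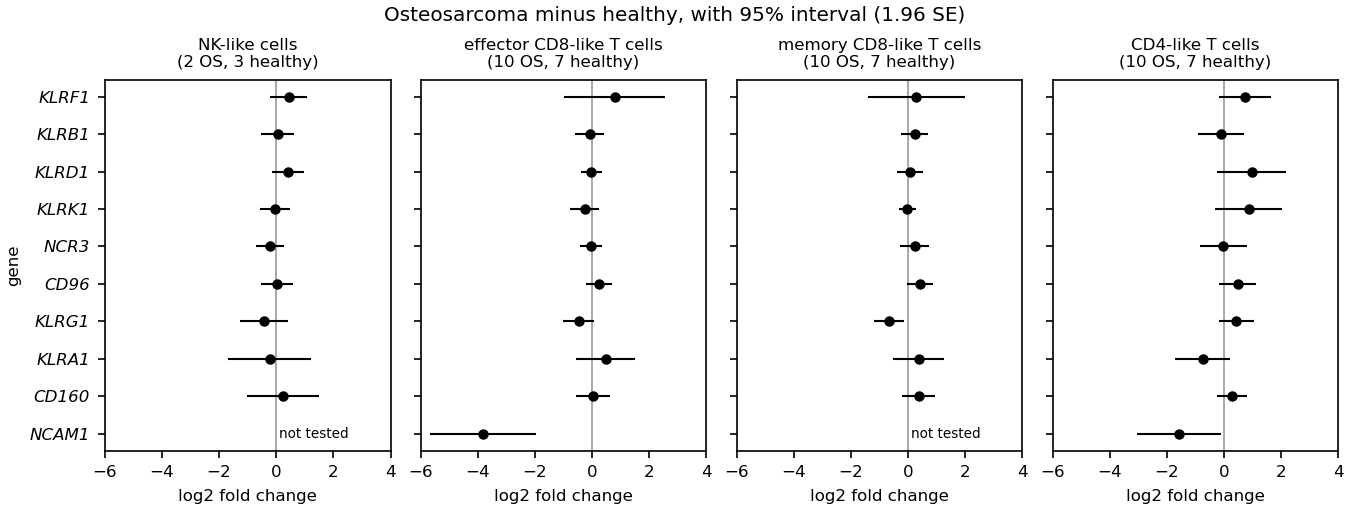
Log2 fold change of OS over healthy (horizontal axis) for each receptor gene in NK-like, effector CD8-like, memory CD8-like and CD4-like cells, with lines for the 95% interval. No gene was called; the estimate for KLRB1 in effector CD8-like cells was -0.09 with an interval from -0.60 to 0.42, and NCAM1 had the lowest estimate, -3.82 in effector CD8-like cells, which was -2.47 without dog H6.

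For each receptor, the genes most like it were sought by Pearson's r of the mean log2(CPM + 1) over 18 classes, among 9917 genes with at least 10 CPM in a class, as a description in which all points share the same libraries and clusters. KLRF1 was closest to ENSCAFG00000043476 (r = 0.99), PAX4 (0.98) and STMN2 (0.92), and PAX4 and STMN2 were themselves markers used to name the NK-like cells. Of the genes that follow, GZMA was a naming marker of effector CD8-like and NK-like cells, IL12RB2 of effector CD8-like cells and FASLG of memory CD8-like and NK-like cells. NCR3 was closest to GZMA (0.99), a granzyme, then KLRB1, and KLRB1 to NCR3, GZMA and KLRD1. KLRK1 was closest to FASLG (0.97), the death ligand, KLRD1 to STYK1, NCR3 and KLRB1, and KLRG1 to IL12RB2 (0.97), the interleukin-12 receptor chain. KLRA1 and CD160 were each closest to the other (0.93), followed by KLRD1 for both. CD96 was closest to ABCB1 (0.97), and NCAM1 to FST (0.86), PTPRK (0.86) and EDAR (0.81).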

How the data were processed

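Each deposited matrix, of which every dog has 1, gives whole-number UMI counts for genes by cells, made by the authors with Cell Ranger 7.0.0 on CanFam3.1 per the submitters' processing notes. The authors aligned reads both with and without introns, and which alignment was deposited is not given in the sources used here. CD300A, LAIR1, KLRC1, KLRC2, NCR2, FCGR3A, ITGAX, TYROBP and CD247 were listed and not analysed here under these names.

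Groups came from the sample labels, with each dog as 1 replicate. Of 93013 barcodes, 84345 had over 200 and under 4500 genes, over 500 and under 20000 UMIs and under 10% mitochondrial counts. Scrublet as called from scanpy 1.11.5 scored doublets, and the highest scores, 0.8% per 1000 barcodes of a library, were removed (3938). Clustering of 80407 cells used 2000 variable genes without the listed genes, 30 principal components, a correction across dogs after the model of Harmony, 20 neighbours and the Leiden method (leidenalg 0.10.2) at resolution 1.0 with seed 1, and was repeated on T and NK cells (35 clusters). Names came from marker lists, mostly the study's signatures without the receptors, with thresholds set after the clusters were seen. Clusters marked by platelet or erythrocyte transcripts (4934 cells) were removed, which left 18 named classes, 1045 other T cells and 103 unnamed cells. The removed cells included T cell clusters of 588, 276 and 101 cells with CD3E at 988, 840.5 and 918 CPM. KLRB1 was at 808, 857 and 0 CPM in these clusters, and NCR3 at 801, 722 and 3.04 CPM. The levels given above leave these cells out.

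A level is the CPM of the summed counts of a class in a dog with at least 10 cells. Tests used dogs with at least 25 cells, genes with at least 10 counts, TMM scaling and edgeR 4.0.16 (R 4.3.3, limma 3.58.1), with Benjamini-Hochberg adjustment over all genes tested. In edgeR the dispersion was shared across genes and not fitted gene by gene. Very small p-values, above all those from few dogs, thus need not reflect the spread of a gene over dogs. Values with ± are mean and SD over dogs for levels and shares, and estimate and SE for log2 fold changes. This SE is the absolute estimate divided by the square root of the quasi-likelihood F statistic, and not a fitted SE. Where a class held few UMIs it can be smaller than counting error allows. DESeq2 1.42.0 was an alternative. Detection was computed on cells thinned to 2000 UMIs (shallower cells left out), with 1000 UMIs and no thinning as alternatives. Other alternatives changed the scaling, the filters, doublet removal, clustering resolution, correction across dogs, the dogs included, a block for the replicate number, and the omission of single dogs. A separate edgeR fit was tried on simulated counts. It covered OS against healthy in effector CD8-like and NK-like cells, and NK-like against effector CD8-like cells. That fit estimated a dispersion for each gene, and the simulated counts held no effect of the dog. It thus did not check the fits reported here as they were run.

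Named were the 10 receptors in every comparison, the 3 genes most like each across classes, and members of the lists of other receptors, adaptors and ligands. The receptors and lists were chosen with earlier results of these data known. Intervals (95%) are normal intervals from the SE and concern the estimate, not the spread of single dogs. For KLRG1 in naive CD8-like cells, OS against healthy, the interval was 0.03 to 3.65 while p was 0.0556 (edgeR). Such intervals can thus be too narrow. The limit for a count of 0 is 3 UMIs. No sequences were printed, since none were used here.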

Additional observations from a re-analysis of the deposited data

Results flagged for a closer look

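Of 70 groups of 6 to 10 dogs examined gene by gene, 13 held a dog far from the others by Dixon's 95% criterion. For independent, normally distributed values chance gives about 1 in 20 such groups. CPM values are skewed, several rest on few UMIs, and the groups share dogs, so this rate is no baseline here. In NK-like cells dog OS10 was high for KLRA1, 218 CPM from 12 UMIs in 17 cells, and low for NCR3, 163.5 CPM from 9 UMIs, and it is one of the libraries whose NK-like cells held CD3E. In effector CD8-like cells dog OS9 was high for CD96, at 1127 CPM from 5050 UMIs in 1163 cells, the best counted of these values.

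In memory CD8-like cells dog H6 was high for KLRG1 (207.3 CPM, 64 UMIs) and dog H3 for KLRA1 (172.8 CPM, 41 UMIs). In naive CD8-like cells dog OS4 was high for KLRK1 (209.4 CPM, 88 UMIs in 65 cells), in the library that also held CCL5 there. NCAM1 was high in dog OS8 both in naive CD8-like cells (171.3 CPM, 135 UMIs in 117 cells) and in naive CD4-like cells (42.2 CPM, 131 UMIs in 522 cells).

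The others rested on 6 to 22 UMIs each. KLRK1 in DN T-like cells was high in dog H3 (51.7 CPM, 15 UMIs in 69 cells) and dog OS1 (113.1 CPM, 19 UMIs in 17 cells). In gd T-like cells KLRK1 was high in dog H7 (148.8 CPM, 22 UMIs in 22 cells), KLRG1 in dog H3 (194.2 CPM, 18 UMIs in 15 cells, with CD3E at 43.2 CPM) and KLRB1 in dog OS4 (86.1 CPM, 6 UMIs in 10 cells).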

How the results depend on the processing

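For the receptors tested between classes, 605 of 655 values kept direction and call under alternatives other than leaving out a dog. Of levels 96 moved and 1204 did not, and of detection shares 134 moved and 246 did not. In the comparison of OS with healthy dogs, genes called in all cells went from 0 to 3 with DESeq2. In NK-like cells 1 gene was called, against 20 with no filter on low counts, 3 with at least 10 cells, 2 with at least 10 cells and CD3E under 500 CPM (an alternative chosen after seeing the data), 3 with filterByExpr, 0 with doublets kept, with resolution 0.6 or with listed genes kept, and 4 with resolution 1.6 or with no correction across dogs. Leaving out 1 dog gave 0 to 9 genes, the latter without OS6. In DN T-like cells 15 genes were called with no filter and 0 to 1 without single dogs (1 without H4 or H5). In naive CD8-like cells leaving out 1 dog gave 0 to 1 genes and 0 to 1 receptors, the 1 being NCAM1 without OS8.

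Replicate numbers are shared by healthy and OS dogs. Same-numbered dogs had correlations of deviations from -0.28 to 0.32, so the numbers did not pair them. With the replicate block, 1 gene was called in memory CD8-like cells, 2 in naive CD8-like cells, including 1 receptor (NCAM1, -3.59, adjusted p = 0.00776), and 3 in DN T-like cells. The fits of classes within a dog have the dog as the block.

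NK-like against effector CD8-like cells gave 417 genes, 251 with DESeq2, 256 in healthy dogs only and 194 in OS dogs only, and 3 receptors, 5 in healthy dogs only and 3 to 5 without single dogs (5 without OS6). Directions that turned were those of KLRK1 (-0.0021 with at least 10 cells and CD3E under 500 CPM, -0.014 with doublets kept, -0.059 with listed genes kept and -0.010 with no correction), KLRG1 (-0.0086 in OS dogs only and -0.030 with listed genes kept) and KLRA1 (0.28 in OS dogs only), none of them called. Memory against effector CD8-like cells gave 808 genes, 524 at resolution 0.6, and 3 receptors, 6 with doublets kept or with no correction. Turned and not called there were KLRF1 (0.16 in healthy dogs only, 0.26 at resolution 0.6), KLRG1 (0.28 at resolution 0.6) and NCAM1 (0.81 with DESeq2). In OS dogs only, 1494 genes against 2247 were called between DN T-like and effector cells and 981 against 1587 for gd T-like cells. The cause of these changes was not tested, apart from fewer dogs or genes where the alternative removes them.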
